A study of Mus musculus with 2 samples.

Results

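Fatty acid oxidation was described through 32 genes: the enzymes that activate long-chain fatty acids and carry them into the mitochondrion, the enzymes of the β-oxidation spiral, the flavoproteins that pass its electrons to the respiratory chain, and regulators of the pathway. The genes were chosen by name and not by their values, although earlier results of these data were known. All 32 had a row among the 31053 genes of the count files. They were read in single cell RNA-seq of the intact mouse heart at postnatal day 1 (P1) and postnatal day 7 (P7), with 1 library per age. Each library came from 3 hearts of a single litter that were pooled, digested with collagenase and sorted for live cells. The mice were described as intact, and no treatment was named. The study used both sexes and kept its genetically modified lines on a C57BL/6 background, but the sources used here do not give the sex, strain or genotype of these pups.

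In β-oxidation, an acyl-CoA is shortened by 4 reactions in turn, namely dehydrogenation, hydration, another dehydrogenation and thiolysis, with different enzymes for chains of different length. Acyl groups of long chains reach the mitochondrial matrix only after being joined to carnitine, and this entry step is inhibited by malonyl-CoA. The mammalian heart is known for its change after birth from a fuel supply dominated by glucose and lactate to one dominated by fatty acids, and cardiomyocytes are the cells in which this change is best known.

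Cells were assigned to classes by gate genes. A cell with a Cdh5 UMI was called endothelium, and within it the Gja5, Aplnr and Car4 subsets were read separately. Pdgfra marked fibroblasts, Myh11 smooth muscle, Kcnj8 pericytes and Csf1r macrophages, and cells in which Tnnt2 made up at least 0.2% of the UMIs were called myocytes. A UMI is a tag that counts a captured mRNA molecule once. Levels are given in CPM, the UMIs of a gene summed over a class per 1000000 summed UMIs of that class. Because the chemistry reads the 3′ end and counts molecules, CPM was not divided by gene length. Levels were set side by side between genes on this basis, with limits where genes overlap or have near-identical copies, as given below. A single library per age leaves no replicate, so the ages were compared by size and without a test. All 95% intervals reflect counting error alone and say nothing of how hearts vary. They are exact Poisson intervals for CPM, Clopper-Pearson intervals for shares, and conditional binomial ones, also exact, for ratios.

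The libraries held 7836 barcodes with 63585504 UMIs at P1 and 9077 barcodes with 98346195 UMIs at P7, of which 4991 and 8511 cells were kept. The largest class was endothelium with 1616 cells at P1 and 3057 at P7, followed by fibroblasts with 1083 and 2072. Smooth muscle had 148 and 373 cells, pericytes 224 and 363, macrophages 236 and 186, and myocytes 86 and 22. Digestion took 20 min for the P1 hearts, against 45 min at P7. The Xist UMIs numbered 57336 at P1 and 12 at P7, and those of 4 Y-linked genes 2 and 18039, so age, sex and digestion time cannot be told apart in these libraries. The 2 libraries shared 18 barcode sequences.

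The marker list of each of the 6 classes was highest in that class. The Aplnr and Car4 subsets were less distinct. The Aplnr list summed to 848 CPM in the Aplnr subset at P1 against 966 in the Car4 subset, but to 1208 against 939 at P7. The Car4 list was higher in the Car4 subset at either age, with 4658 against 2468 CPM at P1 and 4366 against 3295 at P7. Timp4, of the Car4 list, stood at 428 CPM in the Car4 subset at P1 against 65.2 in the Aplnr subset. At P7 it stood at 49.0 against 64.5. The pericyte class held RNA of fibroblast genes, since Dcn stood at 1955 CPM at P1 and 3656 at P7, beside 6675 and 12436 in the fibroblasts. It was uneven over the class, as 128 of 224 cells at P1 and 263 of 363 at P7 had at most 5 UMIs of Dcn and Col1a1. Whether fibroblast-like cells were among the rest was not tested. A list of 11 genes known from lung summed to 82.2 CPM in the endothelium at P1 and 14.4 at P7, and to 202 and 10.3 in its Car4 subset. It was not limited to endothelium, with 137 and 12.5 CPM in pericytes, 98.5 and 3.23 in macrophages and 44.8 and 8.25 in smooth muscle. In fibroblasts it summed to 15.6 and 2.10 CPM, and over all kept cells to 271 and 6.76. The myocytes were thinly sampled, with 486034 summed UMIs at P1 and 50992 at P7 and medians of 3267.5 and 1419 UMIs per cell, so that a single UMI was worth 2.06 CPM at P1 and 19.6 at P7. Their median mitochondrial share was 0.62% of UMIs at P1 and 2.20% at P7, against 2.49% to 4.74% in the other classes, and Myh6, the α-myosin heavy chain, stood at 4792 and 882 CPM.

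The 32 genes together were several times as abundant in myocytes as in any other class, and most of them were highest there one by one. Their summed level was 11213 CPM (95% interval 10917 to 11515) in the P1 myocytes and 12061 CPM (11126 to 13053) in the P7 myocytes. In the 5 other classes the sum lay between 1994 CPM in fibroblasts and 2269 CPM in macrophages at P1, and between 1561 CPM in fibroblasts and 2205 CPM in macrophages at P7. Ucp2 alone made up 870 and 820 CPM of the macrophage sums. Macrophages were the lowest of the 5 classes for the acyl-CoA dehydrogenases (218 and 228 CPM) and for the hydration to thiolysis steps (375 and 377 CPM). They were the highest for the acyl-CoA synthetases (124 and 136 CPM) and the peroxisomal genes (115 and 90.4 CPM). At P1 25 of the 32 genes had their highest level in myocytes, and at P7 24 of 32. The same count was not made over all genes. At P7 1 UMI was worth 19.6 CPM in myocytes, and Ppara, Pdk4 and Ucp3 ranked highest there on 1 UMI each. The genes highest elsewhere at either age were Cpt1a, Cpt1b, Acsl3, Acsl4, Acsl5 and Ucp2, joined by Acaa1a at P1 and by Ehhadh and Ppargc1a at P7, each of the latter pair with 0 UMIs in the P7 myocytes. Among the myocytes 85 of 86 cells at P1 and 20 of 22 at P7 had at least 1 UMI of the 32 genes, but the sums weigh deep cells most, since single cells held from 510 to 46118 UMIs at P1 and from 507 to 11558 at P7. The genes took a median of 1.06% and 0.75% of a cell's UMIs.

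**Figure D1:**
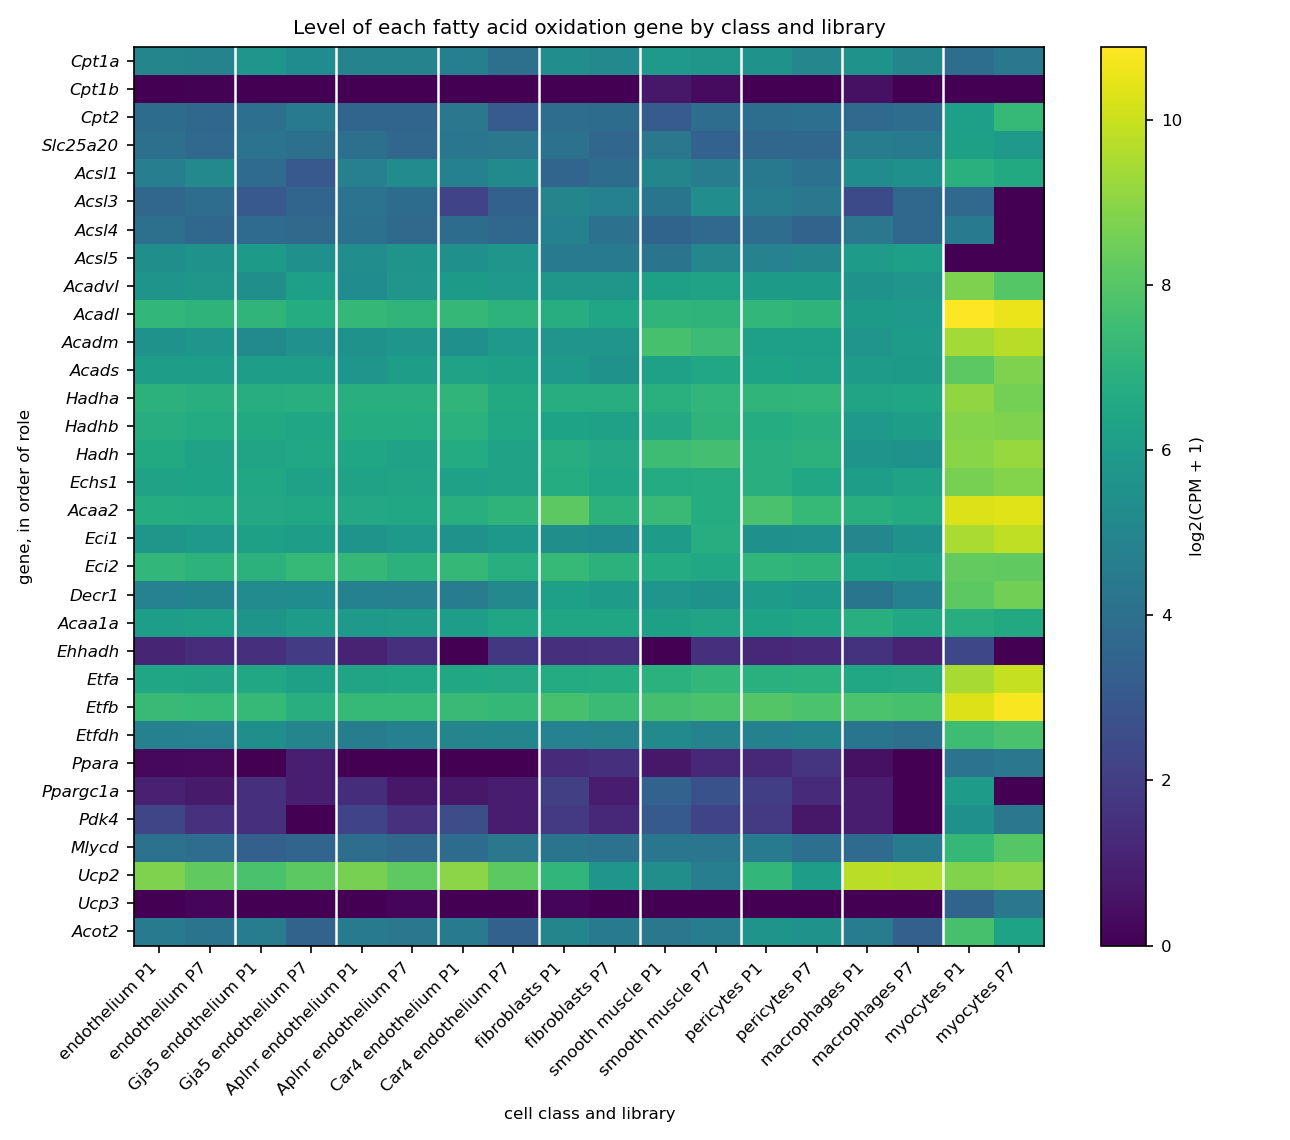
Level of each of the 32 genes, in order of their role, by cell class and library, as log2(CPM + 1). The myocyte columns at the right are the brightest for most rows, whereas the Acsl5 row is dark in myocytes and the Ucp2 row is brightest in macrophages.

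Against the endothelium, 23 of 29 genes that had enough UMIs were past 2-fold higher in the P1 myocytes, where 13.2% of all genes were, and 2 of 29 were past 2-fold lower, where 44.1% of all genes were. At P7 the counts were 21 of 28 higher, beside 12.4% of all genes, and 4 of 28 lower, beside 65.4%. Because the minimum of 20 UMIs applied to both classes together, a gene could be called higher at P7 on few myocyte UMIs. Pdk4 was so called on a single UMI. The median of the genes was 5.15-fold higher in myocytes at P1 and 5.39-fold at P7. The other classes gave similar counts at P1, with 24 of 30 genes past 2-fold higher in myocytes than in fibroblasts (12.2% of all genes), 23 of 28 than in smooth muscle (11.6%), 23 of 28 than in pericytes (10.6%) and 22 of 27 than in macrophages (17.4%). At P7 they were 23 of 30 (12.2%), 21 of 27 (12.1%), 20 of 26 (10.8%) and 20 of 26 (13%) in the same order. Past 2-fold lower in myocytes at P1 were 3 genes against fibroblasts and 2 against each of smooth muscle, pericytes and macrophages, beside 46%, 39.5%, 45% and 39% of all genes, and at P7 5, 5, 3 and 3 genes, beside 66.5%, 57.8%, 60.6% and 54.2%. All these comparisons share the same 86 or 22 myocytes. At P7, against endothelium and against fibroblasts, the median gene of all genes counted had no UMI in myocytes. The shares of all genes past 2-fold lower therefore include genes not read at this depth. They cannot be taken as lower levels alone.

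In the classes other than myocytes most of the genes lay within 2-fold of endothelium. The counts past 2-fold were near or under the shares of all genes. Over fibroblasts 5 of 30 genes were past 2-fold higher than in endothelium at P1 and 2 past 2-fold lower, beside 18.1% and 13.5% of all genes, and at P7 2 and 3 of 30, beside 19.7% and 15.4%. For smooth muscle over endothelium the counts were 2 and 3 of 29 at P1 (15.2% and 17.6% of all genes) and 4 and 1 of 29 at P7 (15.8% and 18.8%). For pericytes they were 5 and 1 of 29 (15.8% and 12.5%) and 2 and 3 of 29 (17% and 13.6%), and for macrophages 1 and 4 of 29 (15.2% and 24.5%) and 1 and 2 of 28 (14.3% and 26.8%). In each of these comparisons the median of the genes lay within 1.33-fold of endothelium. Single genes differed more over the 5 classes. Among genes with a UMI in each, the median fold of the highest class over the lowest was 2.16 at P1 and 1.95 at P7.

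**Figure D2:**
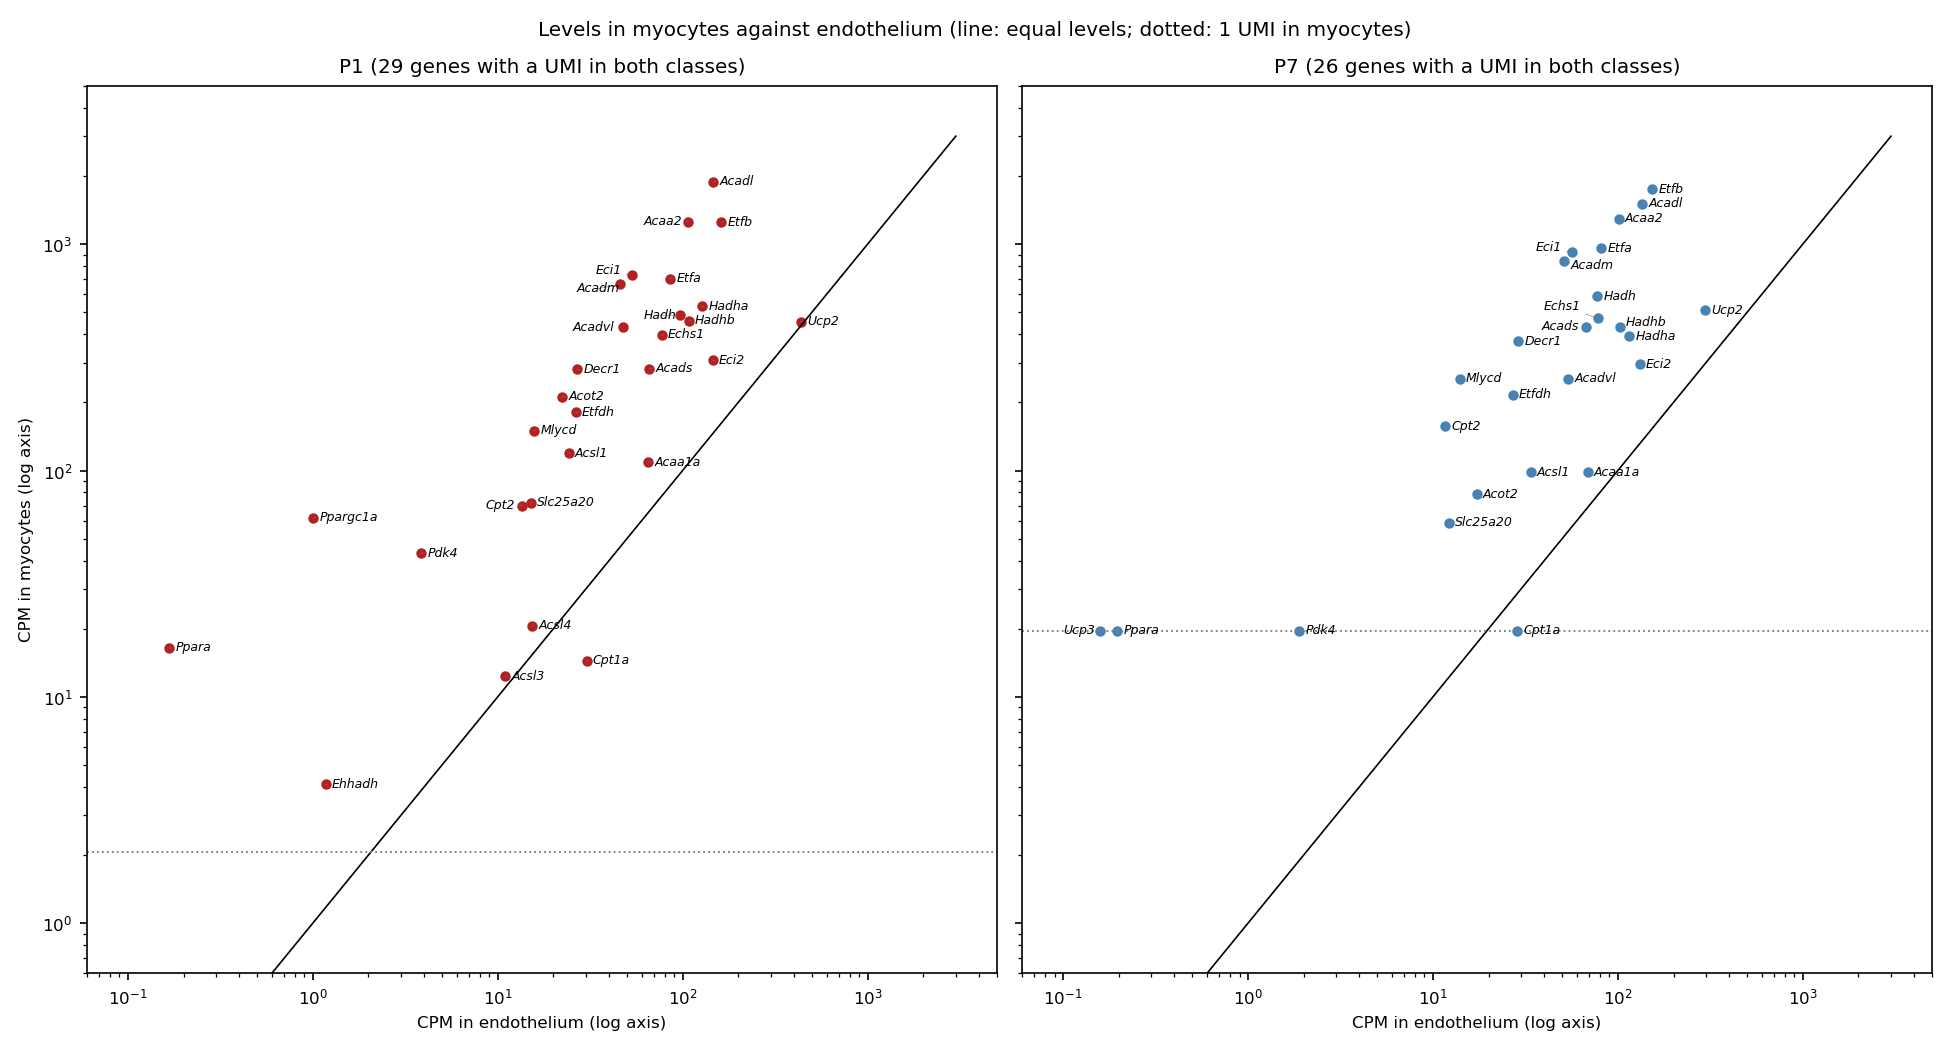
CPM in myocytes against CPM in endothelium for each gene with a UMI in both classes, on log axes, at P1 (left) and P7 (right); the solid line marks equal levels and the dotted line 1 UMI in myocytes. Most genes lie above the line, Acadm (14.5-fold) and Acadl (12.9-fold) far above it at P1, and Ucp2 lies close to it with 455 against 434 CPM at P1.

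The carnitine shuttle brings long acyl chains into the matrix. Cpt1a, the carnitine palmitoyltransferase of the outer mitochondrial membrane that catalyses the committed step, was one of the few genes that were not highest in myocytes. It stood at 30.3 CPM at P1 and 28.6 at P7 in endothelium, at 38.9 and 34.1 in fibroblasts, at 55.8 and 53.1 in smooth muscle, at 46.4 and 31.8 in pericytes and at 45.4 and 31.2 in macrophages. The P1 myocytes held 7 Cpt1a UMIs, or 14.4 CPM, which was 0.48 times the endothelial level (95% interval 0.19 to 0.99), and the P7 myocytes held 1. Its level was lower at P7 in all 5 classes other than myocytes, with an interval of the log2 ratio below 0 in 3 of them, and none of the 5 was past 2-fold.

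Cpt1b, the isoform known from muscle and heart, gave no reading. It had 0 UMIs in the myocytes at either age, and no more than 1 UMI in any of the 5 other classes of a library. In the annotation used here (GENCODE M21, GRCm38) the gene lies at chr15:89416405-89425863 on the minus strand, entirely within Gm44502, a gene on the same strand that had 0 UMIs in either library. Gm44502 shares 2744 of the 3372 exon bases of Cpt1b and all of the last 500, where reads of a 3′ library fall. Cell Ranger assigns a read only when it fits the exons of a single gene. What this overlap did to the Cpt1b count was not tested, and the files therefore cannot show which of the isoforms carries the entry step in myocytes.

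The remaining shuttle genes were highest in myocytes. Cpt2, the transferase of the inner membrane that frees the acyl group from carnitine, stood at 70.0 CPM in the P1 myocytes from 34 UMIs and at 157 CPM in the P7 myocytes from 8 UMIs, against 13.5 and 11.6 in endothelium. Slc25a20, the carnitine-acylcarnitine carrier, stood at 72.0 CPM from 35 UMIs and 58.8 CPM from 3 UMIs in myocytes, and at 15.1 and 12.2 in endothelium. In smooth muscle Slc25a20 was lower at P7, with 9.80 against 19.0 CPM and a log2 ratio of -0.96 (95% interval -1.68 to -0.22), just within 2-fold.

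The long-chain acyl-CoA synthetases activate fatty acids before any of these steps, and the classes differed in which of the 4 genes was the most abundant. In the P1 myocytes Acsl1, the main isoform of oxidative tissues, made up 58 of the 74 UMIs of the family, or 78.4% (95% interval 67.3 to 87.1). All 5 family UMIs of the P7 myocytes were Acsl1, which allows a share as low as 47.8%. Acsl5 had 0 of 74 family UMIs in the P1 myocytes, with an upper limit of 4.86%.

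Acsl5 led instead in macrophages, endothelium and pericytes. It held 50.3% of the family UMIs in macrophages at P1 and 52.0% at P7, and 45.1% and 44.5% in endothelium. In pericytes it held 32.5% (25.9 to 39.6) and 40.5% (34.4 to 46.8), ahead of Acsl3 with 27.3% (21.2 to 34.2) and 25.4% (20.1 to 31.2). Acsl3, known from lipid droplets and the endoplasmic reticulum, held 33.8% and 33.9% in fibroblasts but 3.59% and 8.33% in macrophages. Fibroblasts at P1 had 30.1 CPM of Acsl3 and were 2.73-fold above endothelium (2.31 to 3.24), and at P7 they had 26.1 against 13.9 CPM. Acsl4, which prefers arachidonate and lies on the X chromosome, held 29.6% of the family UMIs in fibroblasts at P1 and 20.7% at P7, where its level was 26.3 and 15.9 CPM.

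**Figure D3:**
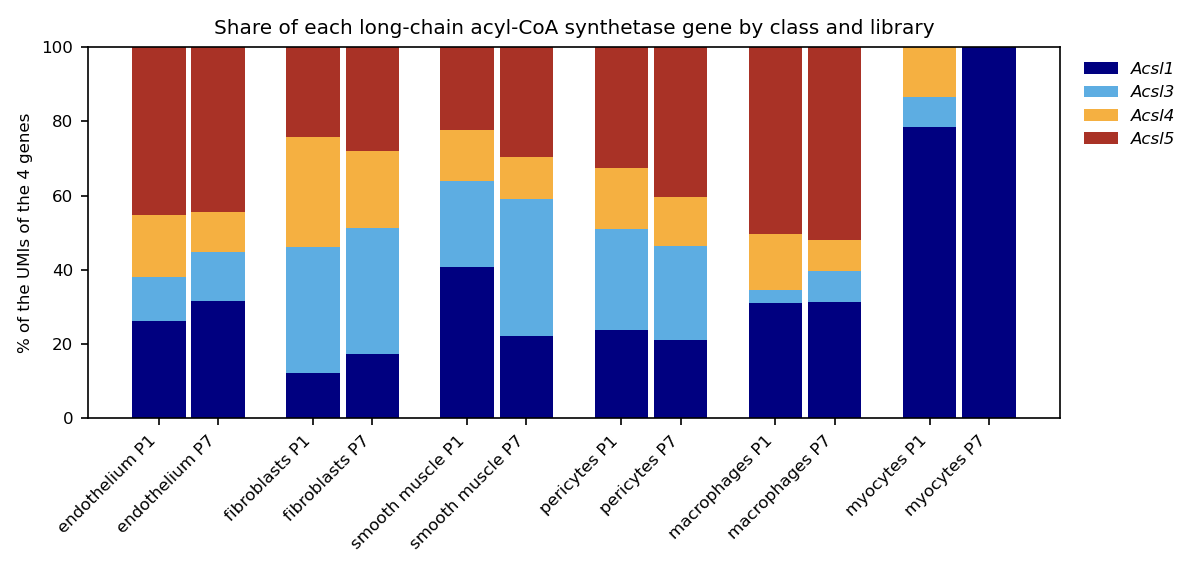
Share of the UMIs of Acsl1, Acsl3, Acsl4 and Acsl5 held by each of the 4 genes, in percent, by cell class and library. Acsl1 fills most of the myocyte bars (78.4% at P1, 5 of 5 UMIs at P7), Acsl5 about as much as the other genes together in macrophages, and Acsl3 is largest in fibroblasts and in P7 smooth muscle.

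The acyl-CoA dehydrogenases, which begin each turn of the spiral, were far more abundant in myocytes than in the rest. Acadl, the long-chain enzyme, stood at 1885 CPM (95% interval 1765 to 2011) in the P1 myocytes and 1510 CPM (1192 to 1887) in the P7 myocytes, against 146 and 135 in endothelium. The myocyte level was 12.9 times the endothelial one at P1 (12.0 to 13.9) and 11.2 times at P7 (8.79 to 14.0). Its lowest level was in macrophages, with 60.0 and 56.5 CPM. Acadl was thus the most abundant of the 32 genes in the P1 myocytes and the second after Etfb at P7.

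Acadm, the medium-chain enzyme, separated smooth muscle from the other vascular and stromal classes. Its level was 211 CPM (189 to 234) at P1 and 174 CPM (161 to 188) at P7 in smooth muscle, and between 45.9 and 70.0 CPM at P1 and between 50.3 and 70.0 CPM at P7 in endothelium, fibroblasts, pericytes and macrophages. Smooth muscle was 4.59-fold above endothelium at P1 (4.04 to 5.21) and 3.40-fold at P7 (3.09 to 3.73), where 15.2% and 15.8% of all genes were past 2-fold higher in smooth muscle. In myocytes Acadm stood at 665 and 843 CPM. The summed share of myocyte genes in smooth muscle, 0.23% and 0.19% of the myocyte level, would bring 1.51 and 1.63 CPM of Acadm with it.

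Acadvl, the very-long-chain enzyme, and Acads, the short-chain enzyme, were more even. Acadvl ranged from 46.2 to 71.1 CPM at P1 and from 49.5 to 76.6 CPM at P7 over the 5 classes, and stood at 430 CPM in the P1 myocytes and 255 in the P7 myocytes, the latter from 13 UMIs. Acads ranged from 55.9 to 77.9 CPM and from 45.5 to 90.5 CPM, with 282 and 431 CPM in myocytes.

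The next reactions of the spiral are carried by the trifunctional protein, whose α and β subunits are encoded by Hadha and Hadhb, and for shorter chains by Echs1, the short-chain enoyl-CoA hydratase, Hadh, the hydroxyacyl-CoA dehydrogenase, and Acaa2, the mitochondrial thiolase. Hadha and Hadhb stand head to head on chromosome 5, at chr5:30118304-30155162 on the minus strand and chr5:30155248-30184593 on the plus strand, and their counts kept close to one ratio. Hadha held 54.1% of the joint UMIs in endothelium at P1 and 53.1% at P7, 58.5% and 59.5% in fibroblasts, 55.7% and 51.0% in smooth muscle, 56.6% and 55.5% in pericytes and 58.4% and 56.3% in macrophages. In myocytes it held 53.6% (95% interval 49.1 to 58.2) at P1 and 47.6% (32.0 to 63.6) at P7. The share in fibroblasts lay above that in endothelium by more than the counting error at either age.

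The 85 bases between these genes are shown because the starts of both genes, as GENCODE M21 places them, border them. RefSeq differs for Hadha. Its promoter window there, chr5:30154931-30155230, puts the start inside the gene of GENCODE. The sequence is from GRCm38.p6, on the plus strand, and capitals mark GGGCGG, the core of the GC box bound by Sp1-type factors, which lies 85 and 20 bases before the start of Hadhb.
Hadha-Hadhb interval, chr5:30155163-30155247: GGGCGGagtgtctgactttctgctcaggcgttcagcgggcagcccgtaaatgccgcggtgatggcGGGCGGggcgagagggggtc

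In the P1 myocytes Hadha stood at 531 CPM, Hadhb at 459, Hadh at 486 and Echs1 at 397, between 4.17 and 5.15 times their endothelial levels. In the P7 myocytes the values were 392, 431, 588 and 471 CPM from 20, 22, 30 and 24 UMIs. Hadh was also higher in smooth muscle than in endothelium, with 180 against 96.9 CPM at P1 and 197 against 77.2 CPM at P7, the latter a 2.55-fold difference (2.34 to 2.78).

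Acaa2 was the gene of the spiral with the largest difference between ages. Its level was 1257 CPM in the P1 myocytes and 1294 in the P7 myocytes. Of the other classes, fibroblasts were highest at P1 with 279 CPM (95% interval 271 to 287), 2.62 times the endothelial 106 CPM, whereas at P7 they stood at 126 CPM (122 to 129) and pericytes were highest with 153. In smooth muscle Acaa2 stood at 163 CPM at P1 and 106 at P7, in pericytes at 214 and 153, in macrophages at 117 and 100, and in endothelium at 106 and 101. The P7 level was therefore the lower one in each of the 5 classes, with intervals of the log2 ratio below 0 in fibroblasts, smooth muscle and pericytes.

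Double bonds of unsaturated acids are shifted or removed by Eci1, Eci2 and Decr1. Eci1, an enoyl-CoA isomerase, was 13.7 times as high in myocytes as in endothelium at P1 (12.1 to 15.6) and 16.3 times at P7 (11.9 to 21.8), with 728 and 922 CPM in myocytes. Eci2, an isomerase also found in peroxisomes, was closest to even, with 307 and 294 CPM in myocytes against 146 and 131 in endothelium. Decr1, the dienoyl-CoA reductase, was 2.61-fold higher in fibroblasts than in endothelium at P1 (2.34 to 2.90) and 2.18-fold at P7 (2.00 to 2.37), where 18.1% and 19.7% of all genes were past 2-fold higher in fibroblasts. Its myocyte level was 280 and 373 CPM.

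Acaa1a and Ehhadh act in peroxisomes. Acaa1a, a peroxisomal thiolase, stood at 109 and 98.1 CPM in myocytes, 1.67 times the endothelial level at P1 (1.24 to 2.20), and its highest level at P1 was in macrophages with 113 CPM, whereas at P7 it was in myocytes. Acaa1a has a near-identical copy, Acaa1b, so its counts are uncertain where reads fit both. Ehhadh, the peroxisomal bifunctional enzyme, was low but detected, with 1.17 and 1.61 CPM in endothelium, 1.78 and 1.90 CPM in fibroblasts and, from 2 and 0 UMIs, 4.11 CPM in the P1 and none in the P7 myocytes.

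Electrons from the dehydrogenases pass through the electron transfer flavoprotein, encoded by Etfa and Etfb, and its dehydrogenase Etfdh. Etfb was the most abundant gene of the set in the P7 myocytes, with 1745 CPM (1402 to 2148), and stood at 1253 CPM (1155 to 1357) at P1. Etfa stood at 704 and 961 CPM and Etfdh at 181 and 216 CPM in the same cells. The 3 genes together gave 2138 CPM in the P1 myocytes and 2922 CPM in the P7 myocytes, from 1039 and 149 UMIs. Their log2 ratio was 0.46 (0.19 to 0.70). For every other group of the set by role, the interval in myocytes included no change, for instance -0.10 (-0.35 to 0.14) for the acyl-CoA dehydrogenases. The myocyte sum of the whole set turned negative under some other choices, and the ratio of these 3 genes was not tried under them. The proportion of the subunits was alike in myocytes and endothelium, with Etfb at 64.0% and 64.5% of the joint UMIs in myocytes and at 65.4% at either age in endothelium.

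The regulators were low in these cells. Ppara, the nuclear receptor that senses fatty acids, had 8 UMIs or 16.5 CPM in the P1 myocytes and 1 UMI at P7, and stood between 0.17 and 1.49 CPM in the 5 other classes at P1. Ppargc1a, the coactivator of mitochondrial genes, had 30 UMIs in the P1 myocytes, or 61.7 CPM, which was 61.4 times its endothelial level (33.1 to 117). In the P7 myocytes it had 0 UMIs, which allows up to 58.8 CPM at 3 counts, so a difference between the ages was not detectable at this depth. Among the other classes Ppargc1a was highest in smooth muscle, with 9.81 CPM at P1 and 5.67 at P7.

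Pdk4, the kinase that closes pyruvate dehydrogenase when fatty acids are burnt, stood at 43.2 CPM from 21 UMIs in the P1 myocytes and at 19.6 CPM from 1 UMI in the P7 myocytes. In the 5 other classes it did not pass 7.36 CPM. Mlycd, which breaks down malonyl-CoA and so relieves the block on carnitine transfer, stood at 150 CPM and, from 13 UMIs, at 255 CPM in myocytes, 9.57 times the endothelial level at P1 (7.29 to 12.4) and 18.3 times at P7 (9.65 to 31.7).

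Ucp2 and Ucp3 encode mitochondrial carriers of the inner membrane that are neighbours on chromosome 7. Ucp2, at chr7:100493337-100502020, was highest in macrophages, with 870 CPM (95% interval 834 to 908) at P1 and 820 CPM (780 to 863) at P7. Endothelium followed among the 5 classes, with 434 CPM (425 to 444) and 297 CPM (290 to 304), and smooth muscle was lowest, with 40.5 and 24.5 CPM. At P1 macrophages thus stood 21.5-fold above smooth muscle, and at P7 33.5-fold.

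Ucp3, the form known from skeletal and heart muscle, lies at chr7:100472990-100486432 and was read in myocytes at 5 UMIs, or 10.3 CPM, at P1 and at 1 UMI at P7. In the 5 other classes it had at most 4 UMIs, for instance 0 at P1 and 4 at P7 in endothelium, where Ucp2 had 7775 and 7548. In the P1 myocytes Ucp3 was 2.21% of the joint UMIs (0.72 to 5.09). Myocytes thus held far more Ucp2 than Ucp3. The bases before the start of each gene are shown because the genes lie side by side and Ucp2 was abundant in classes with almost no Ucp3. They are from GRCm38.p6 on the plus strand. In Ucp3 capitals mark AGGTCA, the hexamer that nuclear receptors of the PPAR, RXR and ERR type recognise, 148 and 43 bases before the start, and in Ucp2 they mark GGGCGG read on the minus strand, 58 bases before it.
Ucp3, chr7:100472741-100472989: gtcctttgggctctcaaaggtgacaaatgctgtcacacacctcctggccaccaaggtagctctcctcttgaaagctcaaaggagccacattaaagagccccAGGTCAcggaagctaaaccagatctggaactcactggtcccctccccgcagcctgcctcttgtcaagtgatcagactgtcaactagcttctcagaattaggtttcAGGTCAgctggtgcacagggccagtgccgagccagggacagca
Ucp2, chr7:100493108-100493336: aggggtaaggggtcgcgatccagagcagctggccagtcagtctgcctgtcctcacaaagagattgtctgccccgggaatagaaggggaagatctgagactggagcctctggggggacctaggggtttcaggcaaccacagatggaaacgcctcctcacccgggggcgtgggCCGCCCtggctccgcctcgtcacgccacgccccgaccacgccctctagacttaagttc

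Over the set, 29 of the 32 genes had a RefSeq promoter window of 250 bases before to 50 after a start. In these windows GGGCGG on either strand occurred in 20 of 29 genes, or 69.0%, against 38.2% of all genes. AGGTCA on either strand occurred in 5 of 29, or 17.2% (Cpt1a, Acadvl, Acadm, Echs1 and Ucp3), against 18.1% of all genes. The direct repeat of that hexamer with any 1 base between its copies, the form known for PPARs, was in 0 of 29 windows and in 0.048% of all genes, and TATAAA was in 0 of 29 and in 15.7% of all genes. CCAAT occurred in 14 of 29, or 48.3%, against 41.1%. These are matches of letters in a short window and say nothing of binding.

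Between P1 and P7 few of the genes were past 2-fold within any class. In endothelium 28 of the 29 genes with at least 20 summed UMIs lay within 2-fold, 1 was past 2-fold lower at P7, where 5.67% of all genes were, and 0 were past 2-fold higher, where 3.42% were. The median log2 ratio of P7 over P1 was -0.07 over the genes and 0.05 over all 13379 genes counted. Cpt1b, Ppara and Ucp3 had too few UMIs to be counted. Summed, the genes gave 2016 CPM at P1 and 1821 at P7, with a log2 ratio of -0.15 (95% interval -0.17 to -0.13). The sum was not shared evenly, since Ucp2 alone stood at 434 and 297 CPM. By role the log2 ratio ran from -0.54 (-0.58 to -0.49) for Ucp2, Ucp3 and Acot2 to 0.21 (0.13 to 0.30) for the acyl-CoA synthetases. It was 0.007 (-0.04 to 0.06) for the acyl-CoA dehydrogenases. Of the P7 sum, 97.7 CPM is what the RNA of 6 myocyte genes found in these cells (0.81% of the myocyte level, against 0.42% at P1) would bring with it, and of the P1 sum 47.1 CPM.

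In fibroblasts the sum was 1994 CPM at P1 and 1561 at P7. Its log2 ratio, -0.35 (-0.37 to -0.33), was the largest of the 6 classes. By role the ratio ran from -1.24 (-1.32 to -1.17) for Ucp2, Ucp3 and Acot2 to 0.01 (-0.08 to 0.11) for the peroxisomal genes. It was -0.21 (-0.26 to -0.15) for the acyl-CoA dehydrogenases. The median over 30 genes was -0.17, against -0.04 over all 13871 genes counted. Here 3 of 30 genes were past 2-fold lower at P7, where 7% of all genes were, and 0 were past 2-fold higher, where 4.08% were. The 3 genes were Acaa2, Ppargc1a and Ucp2.

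**Figure D4:**
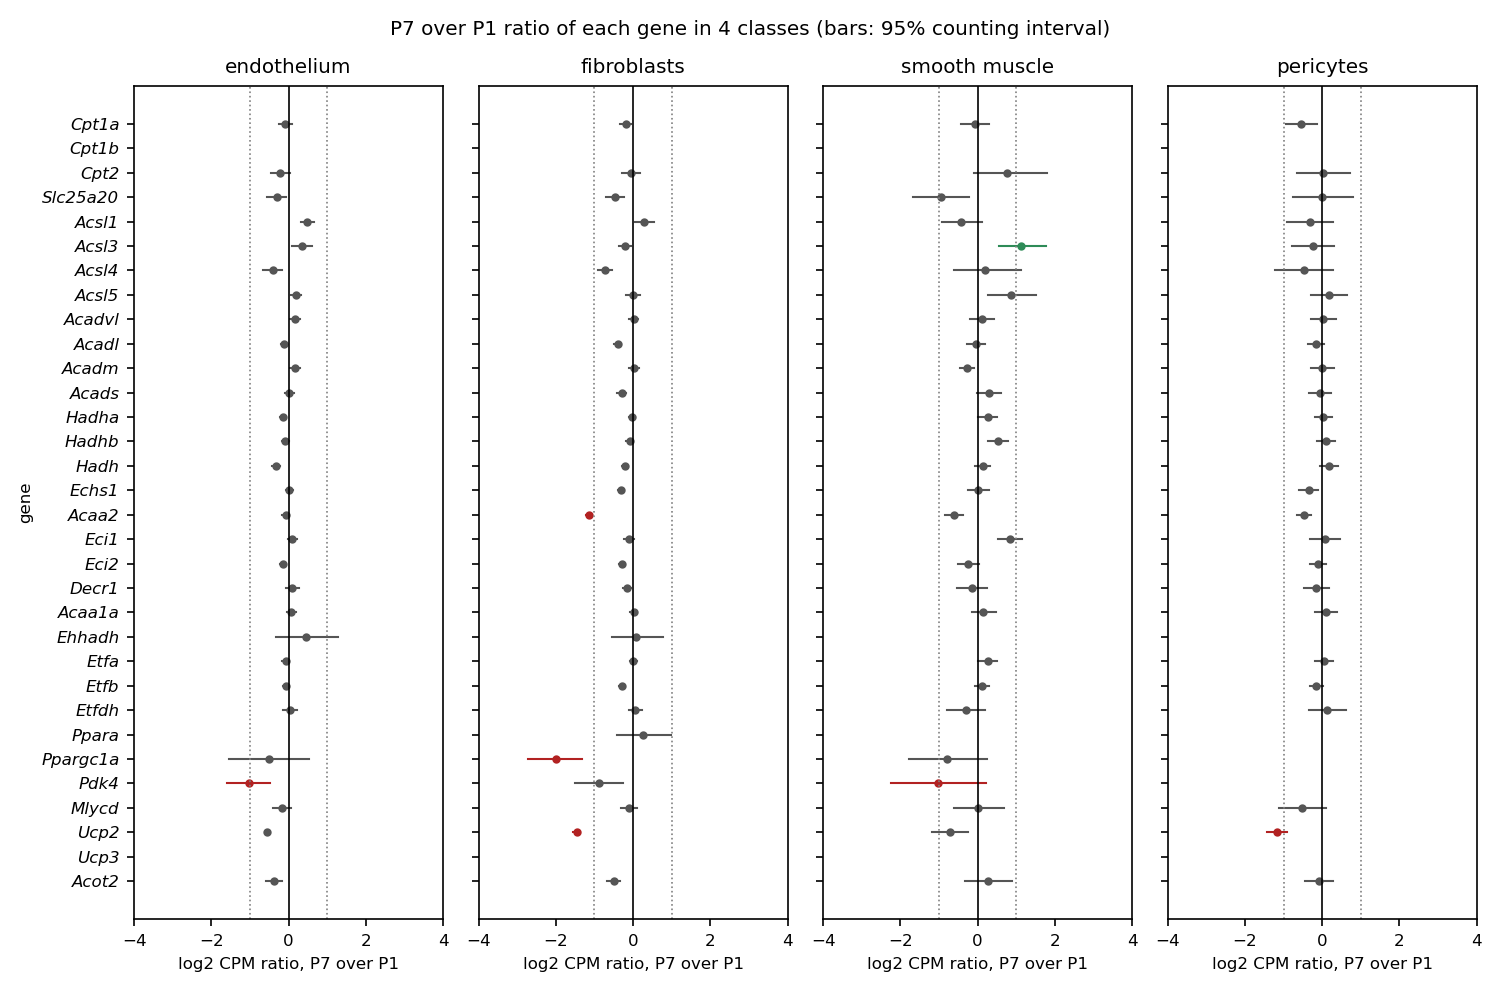
Log2 ratio of CPM at P7 over P1 for each gene with at least 20 summed UMIs, in endothelium, fibroblasts, smooth muscle and pericytes; bars are 95% counting intervals, dotted lines mark 2-fold, red points are past 2-fold lower and green points past 2-fold higher at P7. Most points lie within 2-fold, and Acaa2, Ppargc1a and Ucp2 stand out to the left in fibroblasts.

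Acaa2 in fibroblasts had a log2 ratio of -1.15 (-1.21 to -1.09), from 4689 UMIs at P1 and 4370 at P7. Ucp2 had 144 CPM (138 to 150) at P1 and 52.2 CPM (49.8 to 54.7) at P7, with a log2 ratio of -1.47 (-1.55 to -1.38). Ppargc1a had 3.21 CPM from 54 UMIs and 0.80 CPM from 28 UMIs, with a log2 ratio of -1.98 (-2.71 to -1.31). These 3 genes remained past 2-fold under each of the alternatives tried, with ranges of -1.33 to -1.11, -1.49 to -1.38 and -2.28 to -1.34. Of the 30 genes 21 had a log2 ratio below 0, beside 55.5% of all genes, for example Acsl4 with a log2 ratio of -0.72 (-0.91 to -0.54), Acot2, a mitochondrial acyl-CoA thioesterase, with -0.50 (-0.67 to -0.34), and Acadl with -0.40 (-0.49 to -0.32). In all, 16 of the 30 intervals lay below 0, 1 above it (Acsl1, 0.29) and 13 held it, while 29.1% of the intervals of all genes lay below 0 and 21.9% above.

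Ucp2 had the lower level at P7 in each of the 5 classes other than myocytes, with the interval below 0 in 4 of them. In pericytes it stood at 146 and 65.1 CPM, a log2 ratio of -1.17 (-1.42 to -0.91), in smooth muscle the ratio was -0.73 (-1.19 to -0.25), and -0.33 without cells that held a UMI of the lung list, in endothelium -0.55 (-0.59 to -0.50) and in macrophages -0.09 (-0.18 to 0.01), where it was 0.09 after thinning. The pericyte value differed between choices of pericytes. Among pericytes with at most 5 UMIs of Dcn and Col1a1, 128 cells at P1 and 263 at P7, Ucp2 stood at 112 and 74.0 CPM and the ratio was -0.60, and among pericytes with an Abcc9 UMI it was -0.91. The part of fibroblast RNA in these values was not tested.

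**Figure D5:**
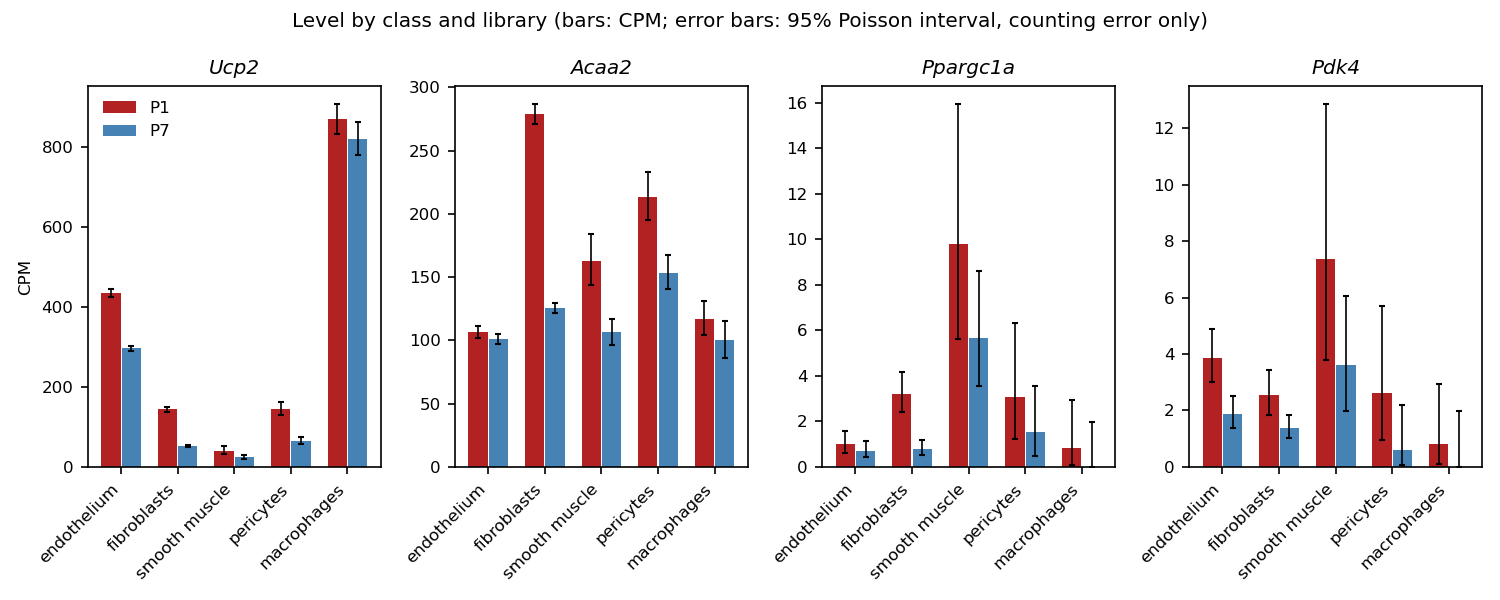
CPM of Ucp2, Acaa2, Ppargc1a and Pdk4 in 5 classes at P1 (red) and P7 (blue), on linear axes that start at 0 and differ between panels; error bars are 95% Poisson intervals that cover counting error only. In fibroblasts the P7 bars of Ucp2, Acaa2 and Ppargc1a are less than the P1 bars by more than these intervals, whereas in macrophages the Ucp2 bars, 870 and 820 CPM, overlap in their intervals.

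The endothelial subsets were not alike for Ucp2. In the Gja5 subset, which holds arterial cells, it stood at 213 CPM from 117 UMIs in 39 cells at P1 and at 281 CPM from 310 UMIs in 129 cells at P7, with a log2 ratio of 0.39 (0.08 to 0.72). In the capillary subsets the P7 level was the lower one, with 403 and 288 CPM in the Aplnr subset (-0.48, -0.58 to -0.39) and 514 and 285 CPM in the Car4 subset (-0.85, -1.03 to -0.67). The 3 subsets thus spanned 213 to 514 CPM at P1 and 281 to 288 CPM at P7. At P1 28.2% of the Gja5, 35.4% of the Aplnr and 40.4% of the Car4 cells held a UMI of the lung list. At P7 the shares were 13.2%, 8.29% and 5.88%. With each cell thinned to 2000 UMIs, which equalises depth between cells, the Gja5 ratio was 0.0026, so its size rested on that choice.

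Pdk4 was the endothelial gene past 2-fold, with 3.86 CPM from 69 UMIs at P1 and 1.89 CPM from 48 UMIs at P7 and a log2 ratio of -1.03 (-1.59 to -0.48). It was within 2-fold with a gate of at least 2 Cdh5 UMIs, at -0.99, and after thinning, at -0.57. Fibroblasts had -0.89 (-1.51 to -0.26) for the same gene. Acsl1 had the largest endothelial value in the opposite direction, with 24.2 and 33.9 CPM and a ratio of 0.48 (0.32 to 0.66). Within the endothelium Acsl1 was lowest in the Gja5 subset, with 12.8 and 7.25 CPM from 7 and 8 UMIs, against 25.6 and 37.2 CPM in the Aplnr subset, which at P7 was 5.14-fold higher. At P7 12.4% of all genes were past 2-fold lower in the Gja5 than in the Aplnr subset.

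Cpt1a showed the reverse order, with 51.1 and 38.1 CPM in the Gja5 subset and, from 41 and 19 UMIs, 24.9 and 15.0 CPM in the Car4 subset. These were 2.05-fold (1.22 to 3.40) and 2.53-fold (1.44 to 4.61) apart, where 8.08% and 7.83% of all genes were past 2-fold higher in the Gja5 subset. Between the Gja5 and Aplnr subsets Cpt1a lay within 2-fold at either age. Over the set, 1 of 25 genes was past 2-fold higher and 2 past 2-fold lower in the Gja5 than in the Car4 subset at P1 (7.02% of all genes were lower), and 2 and 1 of 26 at P7 (5.57% lower). Against the Aplnr subset 0 of 26 were higher at either age (7.84% and 9.49% of all genes) and 2 and 1 were lower (10.3% and 12.4%). Between the ages, 1 of 23 genes was past 2-fold lower in the Gja5 subset (4.37% of all genes), 0 of 28 in the Aplnr subset (4.27%) and 2 of 25 in the Car4 subset (3.69%), and 0 were past 2-fold higher, beside 5.62%, 3.48% and 4.33% of all genes. The genes were Acot2 in the Gja5 subset (-1.24, -2.55 to 0.02, from 13 and 11 UMIs) and Acot2 (-1.13, -2.25 to -0.18) and Cpt2 (-1.20, -2.45 to -0.19) in the Car4 subset. After thinning Acot2 stood at 0.24 in the Gja5 subset and at -0.29 in the Car4 subset. Acot2 has a near-identical copy, Acot1, and its counts are uncertain for that reason. Acot1 stood at 107 and 44.1 CPM in fibroblasts (-1.28, -1.38 to -1.18) and at 19.0 and 10.5 CPM in endothelium (-0.85, -1.09 to -0.61). Without cells that held a UMI of the lung list, Cpt2 in the Car4 subset stood at -0.65, and at P7 this subset also carried 7757 CPM of haemoglobin genes, against 86.3 at P1. The part of these in the result was not tested.

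Smooth muscle was the only one of the 5 classes other than myocytes in which the summed level was not lower at P7. It had 2055 CPM at P1 and 2137 at P7, with a log2 ratio of 0.06 (-0.0018 to 0.11). That interval held 0, as did the one of macrophages given below, so the counts do not set these 2 classes apart from no change. Of 28 genes, 1 was past 2-fold higher (3.06% of all genes) and 1 past 2-fold lower (4.86%). Acsl3 was the higher one, with 17.8 and 39.2 CPM and a ratio of 1.12 (0.56 to 1.77), and took 23.2% and 36.9% of the family UMIs. Pdk4 was the lower one, with -1.04 (-2.25 to 0.22) from 12 and 14 UMIs. It was within 2-fold under several of the alternatives, for instance at -0.53 without cells that held a UMI of the lung list and at -0.88 after thinning. Eci1 stood at 61.9 and 110 CPM (0.83, 0.52 to 1.16), Acsl5 at 17.2 and 31.4 CPM (0.85, 0.27 to 1.52) and Hadhb at 93.8 and 135 CPM (0.52, 0.26 to 0.80), while Acaa2 was lower with -0.62 (-0.84 to -0.39). Of the 28 intervals 6 lay above 0 and 4 below, beside 11.0045% and 13.07% for all genes.

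In pericytes the sum was 2137 CPM at P1 and 1915 at P7, with a log2 ratio of -0.16 (-0.21 to -0.10), with 1 of 26 genes past 2-fold lower (Ucp2, beside 3.32% of all genes) and 0 past 2-fold higher (2.72%). By role the pericyte ratio ran from -0.81 (-1.02 to -0.61) for Ucp2, Ucp3 and Acot2 to 0.09 (-0.18 to 0.37) for the peroxisomal genes. In macrophages the sum was 2269 and 2205 CPM (-0.04, -0.10 to 0.02). Acsl3 was past 2-fold higher in macrophages, with 4.46 CPM from 11 UMIs and 11.3 CPM from 21 UMIs and a ratio of 1.31 (0.22 to 2.54), and Acot2 past 2-fold lower, with 23.5 and 9.15 CPM and -1.33 (-2.23 to -0.56), 1 of 26 genes each, beside 2.99% and 5.71% of all genes. After thinning the Acot2 ratio in macrophages was -0.38.

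Of the 26 genes counted in all 5 classes, 6 had the lower level at P7 in each class (Cpt1a, Slc25a20, Acadl, Acaa2, Eci2 and Ucp2) and 2 the higher level in each (Acsl5 and Acadvl). Of all 8740 genes counted in the 5 classes, 9.66% were lower and 10.96% higher in each. For Acsl5 the ratios lay between 0.00 in fibroblasts and 0.85 in smooth muscle, and for Acadvl between 0.02 and 0.17, which is less than the differences of Acaa2 or Ucp2. Each of the 8 genes had the opposite sign in at least 1 class under at least 1 of the alternatives, for instance Acaa2 in endothelium and macrophages after thinning. The classes come from the same pair of libraries and are not independent of each other.

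In myocytes, the cells in which the change of fuel is best known, these libraries did not resolve a difference of the whole set. The log2 ratio of the sum was 0.11 (-0.02 to 0.23), the median over 24 genes 0.12, and the median over all 3132 genes counted -0.12. Of the 24 genes, 1 was past 2-fold higher, beside 5.43% of all genes, and 2 were past 2-fold lower, beside 17.1%. The 17.1% may include genes not read at P7, where 1 UMI was worth 19.6 CPM in myocytes. It cannot be taken as lower levels alone. Cpt2 was the higher one, with 1.23 (-0.16 to 2.30). The lower ones were Acot2, with 212 CPM from 103 UMIs and 78.4 CPM from 4 UMIs (-1.27, -3.34 to -0.03), and Ppargc1a, whose P7 count was 0. The 8 genes with too few UMIs in myocytes to be counted were Cpt1a, Cpt1b, Acsl3, Acsl4, Acsl5, Ehhadh, Ppara and Ucp3. Etfb, with 0.49 (0.14 to 0.80), was the one gene whose interval lay above 0, beside 5.36% of all genes. Acot2 was the one whose interval lay below it, also beside 5.36% of all genes.

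The myocyte result depended on how the cells were chosen and weighted. With these choices the log2 ratio of the sum turned, to -0.26 without a mitochondrial limit, which raised the summed UMIs to 632094 at P1 and 91650 at P7, and to -0.45 when each cell was given equal weight.

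Of 77 further genes of lipid metabolism in 6 lists, 69 were counted in endothelium, with 4 past 2-fold higher and 5 past 2-fold lower at P7 and a median log2 ratio of 0.01, where 3.42% and 5.67% of all genes were past 2-fold. In fibroblasts 69 were counted, with 3 higher, 6 lower and a median of -0.06 (4.08% and 7% of all genes), and in myocytes 32, with 2 higher, 6 lower and a median of -0.38 (5.43% and 17.1% of all genes). The limit of depth given above for the P7 myocytes holds for these myocyte counts as well. In endothelium large differences were those of Angptl4, an inhibitor of lipoprotein lipase, with 198 and 69.1 CPM (-1.52, -1.60 to -1.43), and of Fabp3, the fatty acid-binding protein of heart muscle, with 46.9 and 128 CPM (1.45, 1.34 to 1.56). Of the endothelial Fabp3, the myocyte RNA in these cells would bring 38.8 CPM at P1 and 115 CPM at P7, since myocytes held 9252 and 14198 CPM.

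In fibroblasts the largest were Klf15, a transcription factor of lipid and glucose metabolism, with 12.5 and 3.04 CPM (-2.03, -2.39 to -1.69), Fabp5, a fatty acid-binding protein, with 1108 and 283 CPM (-1.97, -2.00 to -1.93), and Acad10, an acyl-CoA dehydrogenase family member, with 8 and 57 UMIs (1.71, 0.71 to 3.06). In myocytes they were Esrra, an orphan nuclear receptor that drives mitochondrial genes, with 53 UMIs or 109 CPM at P1 and 0 UMIs at P7, where 3 counts would be 58.8 CPM, Fabp4 with 568 and 1569 CPM (1.47, 1.09 to 1.83) and Fabp5 with 193 and 431 CPM (1.18, 0.42 to 1.84). Fabp4 stood at 22148 and 18032 CPM in endothelium and Fabp5 at 4054 and 2797, and the part of endothelial RNA in the myocyte values was not tested.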

How the data were processed

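The authors processed 3′ single cell RNA-seq reads with Cell Ranger 3.1.0 on mm10 (GRCm38), per the labels and the study's methods, and deposited the counts of UMIs by gene and by barcode, 1 unnormalized matrix per age. Here the counts were read with Python 3.11.15, NumPy 2.4.6, SciPy 1.17.1 and pandas 2.3.3. Barcodes with 200 to 8000 genes and at most 20% mitochondrial UMIs were kept, which left out 2253 and 160 barcodes under the gene minimum, 0 and 1 above the maximum, and 592 and 405 over the mitochondrial limit at P1 and P7. The median depth of the kept cells was 10875 and 10104 UMIs. The gene limits were those of the study, and the mitochondrial limit was set for this work. No doublet caller was run. Cells that met several gates, 706 at P1 and 1315 at P7, were left out of the classes, as were 851 and 853 that met none and 6 and 5 with tied mural gates. A further gate, a UMI of Cd3e or Cd79a, was among these gates. It set apart 35 cells at P1 and 265 at P7 as lymphocytes, whose levels are not described.

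UMIs were summed per class and library. Log2 ratios of P7 over P1 had 0.5 counts added to each sum and were counted for genes with at least 20 summed UMIs, and past 2-fold was the fixed size. Ratios between classes were plain CPM ratios. Myocyte RNA in another class was read as the summed level of Myh6, Actc1, Tnni3, Mb, Myl3 and Tnnc1 over that in the myocytes. Scripts were tested on simulated data. The 32 genes and the lists were chosen with earlier results of these data known. All 32 are described. Of the further lipid genes, the 3 with the largest absolute log2 ratio among those reaching 50 UMIs at 1 of the ages were named in endothelium, fibroblasts and myocytes. 1 of them is not reported here. Alternatives were other mitochondrial, gene and gate limits, other scalings, thinning to 2000 UMIs, removal of cells with UMIs of 11 lung genes, subtraction of myocyte RNA and other count minimums. Gene positions were taken from GENCODE M21 and promoter windows from RefSeq, both on GRCm38.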

Additional observations from a re-analysis of the deposited data

Results flagged for a closer look

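The barcodes over the mitochondrial limit, which entered no comparison, also held UMIs of the 32 fatty acid oxidation genes. There were 2634 in the 592 such barcodes at P1 and 792 in the 405 at P7, which is drawn to attention because these data lie outside the classes. Mitochondrial genes made up 42.2% and 32.9% of the UMIs of these barcodes. With mitochondrial UMIs taken out of the total, the genes stood at 3205 CPM at P1 and 1850 CPM at P7 there, against 2174 and 1775 CPM in the kept cells, and 20 and 15 of the barcodes met the Tnnt2 level of the myocyte gate. Without the limit, the log2 ratio of the summed level in myocytes was -0.26 in place of 0.11. With 1 library per age no spread between samples exists to compare these values with, and the part of the mitochondrial limit in the difference was not tested.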

How the results depend on the processing

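Over 16 alternatives and 3 added after the data were seen, the summed ratios and counts of the 6 classes were compared. Of these 239 moved by less than the set margin and 43 by more. Values of single genes, only those past 2-fold in a class, were tallied together with the summed ratios and counts of the 3 endothelial subsets. In that tally 334 stayed within the margin, 25 moved and 1 reversed, Acot2 in the Gja5 subset, from -1.24 to 0.24 after thinning. Changes of sign among genes within 2-fold were not part of it. A summed ratio within 2-fold could not be called reversed in either tally, even where its sign turned. For a ratio the margin was its counting interval, so a value within it could still fall under 2-fold. For each value below the cause was not tested. The summed log2 ratio in endothelium, -0.15, was -0.20 with median-of-ratios scaling, -0.17 thinned and -0.19 with myocyte RNA subtracted. That in fibroblasts, -0.35, was -0.31 with median-of-ratios scaling and -0.32 as the mean of single cells. That in smooth muscle, 0.06, was 0.12 thinned. That in macrophages, -0.04, was 0.017 as the mean of single cells and 0.031 thinned. That in myocytes, 0.11, was -0.26 without a mitochondrial limit, 0.23 with median-of-ratios scaling and -0.45 as the mean of single cells. In endothelium the genes past 2-fold higher numbered 2 with no count minimum, and those lower 0 with a gate of 2 UMIs. In smooth muscle the higher ones numbered 0 with tolerant gates and 2 with no minimum. The lower ones there numbered 2 with a 10% mitochondrial limit, a lower gene limit, thinning or no minimum, and 0 with a gate of 2 UMIs, tolerant gates, the mean of single cells, a Tnnt2 gate of 0.5% or a minimum of 50 UMIs. In pericytes the lower ones numbered 0 with a gate of 2 UMIs, the mean of single cells or an Abcc9 UMI, 3 thinned and 2 with no minimum. In macrophages the higher ones numbered 2 as the mean of single cells and 0 thinned or with a minimum of 50 UMIs, and the lower ones 0 with tolerant gates or thinned and 5 with no minimum. In myocytes the higher ones numbered 0 without a mitochondrial limit, as the mean of single cells, thinned or with a minimum of 50 UMIs and 2 with no minimum, and the lower ones 7 as the mean of single cells and 1 thinned or with a minimum of 50 UMIs. Thinning left 51 and 8 myocytes. Differences among single fibroblast genes were the most firmly counted and those in P7 myocytes, where 1 UMI is worth 19.6 CPM, the least. No paired analysis was possible because there is 1 library per age and no test.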
